A study of Papio anubis with 767 samples.

Results

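The ascending and descending colon are the first and the later stretch of the large bowel, and the comparison below sets 12 RNA-seq libraries of the baboon ascending colon against 12 of the descending colon, 24 of the 767 libraries in an atlas of many tissues. Members were chosen by the tissue named in the labels, and the libraries of each colon were paired by their labelled zeitgeber time (ZT, hours after lights on). The animals were 12 male Papio anubis, 5 to 6 years old and 7 to 11 kg, given food at 9:00 and 15:00 under a day of 12 h light and 12 h darkness. One animal was sampled every 2 h from ZT0 to ZT22, so each colon has 1 library per time, and the 6 libraries of ZT0 to ZT10 and the 6 of ZT12 to ZT22 come from 12 different animals. The labels name no genotype or drug for any group, and all animals were perfused before the tissues were taken. Time of day and animal cannot be told apart at any single time. Values are FPKM (fragments counted for a gene, scaled to its transcript length and to the library's total).

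The colon takes up salt and water, ferments what the small bowel leaves, and carries bacteria behind a layer of mucus. Its proximal and distal stretches come from different parts of the embryonic gut, and adult cells keep that address in their HOX genes, transcription factors set out in clusters whose later members are used toward the tail end. Distal colon is known for electrogenic sodium uptake through the epithelial sodium channel under aldosterone, and proximal colon for electroneutral sodium and proton exchange. The same cells hold a circadian clock, in which the activators ARNTL and CLOCK drive their own repressors of the PER and CRY families.

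Depth lay between 6.37 and 19.3 M reads per library, as recovered from the steps of the FPKM values. Reads of the 13 mitochondrially encoded genes took 9.53% to 64.1% of a library, over 30% in 4 libraries (ZT2, ZT6 and ZT22 of the descending and ZT8 of the ascending colon). The tissue labels held at the level of colon: the median of 6 epithelial markers lay between 387 and 678 FPKM in all 24 libraries, and the median markers of small intestine, stomach, pancreas, brain and squamous epithelium stayed at or under 0.355 FPKM. The median of 10 smooth muscle markers ran from 8.39 to 229 FPKM, so the share of muscle wall differed between libraries. It did not follow the colon: the score of muscle minus epithelium markers was higher in the ascending library in 7 of 12 pairs. No marker of any of these muscle, epithelial, fibroblast, T cell, B cell or macrophage lists differed between the colons at an adjusted p under 0.05. In such bulk tissue, fewer cells of a type and less RNA per cell cannot be told apart.

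Both of the following checks of the labels bear on all results. First, levels of 200 genes that vary between animals matched every library of both colons to the animal that the other tissues give 1 step earlier: all 12 ascending and all 12 descending libraries had their best match at the preceding ZT, with correlations of 0.565 to 0.817 and 0.478 to 0.794, and none matched the labelled animal. Cecum and ileum libraries matched the labelled animal in 12 of 12 cases each, and duodenum libraries matched the preceding animal in 12 of 12, as the colons did. The pairs still join libraries of 1 animal, and times are given below as labelled, with the value 2 h earlier where it matters.

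Second, ascending libraries at ZT12 and ZT16 carried genes of the distal colon. HOXB13, the last gene of the HOXB cluster, stood at 40.0 FPKM (ZT12) and 54.2 FPKM (ZT16) in these, at 0 to 4.58 FPKM in the other 10 ascending libraries and at 22.9 to 83.6 FPKM in the descending ones. INSL5, a peptide hormone of distal L cells, read 16.3 and 24.3 FPKM there, and 0.0534 to 3.12 FPKM in the other 10. OTC, an enzyme of the urea cycle, was lowest in the same libraries, at 3.56 and 2.25 FPKM against 8.27 to 13 FPKM in the other 10. To see how whole pairs behaved, the colons were compared in the other 10 pairs alone, and 122 genes differed at least 2-fold with an adjusted p under 0.05 (limma). Of these, 86.1% kept the same direction in the ZT12 pair and 21.3% in the ZT16 pair. The share was 91.0% to 100% in the pairs used for the fit, where it is high because the genes were chosen in them. Those shares are thus no fair reference for the 86.1% of the ZT12 pair. The ZT16 pair thus ran opposite to the others in most of these genes. All 12 pairs entered the main comparison as labelled, and counts or values for the 10 pairs are given beside the gene lists and beside genes whose call differed there, a choice made after these values were seen. HOXB13, INSL5 and OTC are genes by which the libraries left out stood apart. Their larger or separated differences in the 10 pairs therefore follow from that choice.

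**Figure D1:**
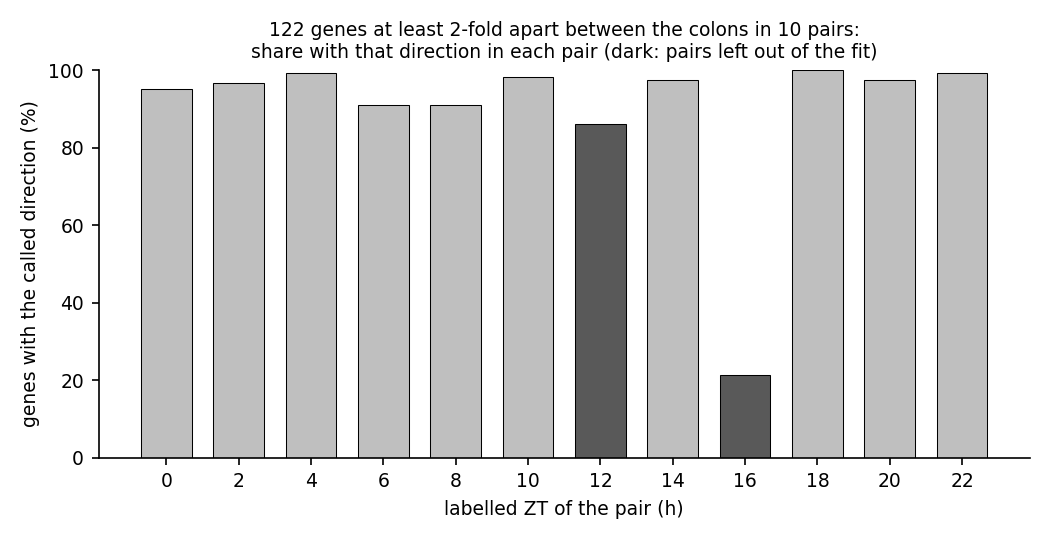
Each bar is 1 animal, by labelled ZT in hours, and its height is the percentage of 122 genes (58 higher in ascending, 64 higher in descending colon in the other 10 pairs) with the called direction in that animal. The ZT16 bar stands at 21.3% and the ZT12 bar at 86.1%. The other bars, at 91.0% or above, are the pairs in which the genes were chosen.

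The first question is which genes tell the 2 ends of the colon apart. Genes were tested at a mean of at least 1 FPKM on log2(FPKM + 0.5) with limma, with the animal as a block and Benjamini-Hochberg adjustment over all 11716 genes. At an adjusted p under 0.05, 181 genes were higher in the ascending colon (1.54% of those tested) and 180 in the descending colon (1.54%), of which 48 and 35 differed at least 2-fold. With quantile normalization the split was 189 against 298. Without the ZT12 and ZT16 pairs, 216 (1.84%) and 213 (1.81%) of 11738 genes were called, 291 of them also called with all pairs. Over all genes tested the median log2 difference was 0.02. With 12 pairs no called gene had groups that did not overlap. With 10 pairs, 19 genes had ascending and descending libraries that did not overlap, 0.162% of those tested, and all 19 were called. The ZT12 and ZT16 pairs were left out because their ascending libraries carried distal genes, so this separation is no independent support. The counts depended on the animals and on the pairing. Without the 4 animals that had a library over 30% mitochondrial reads, 3 genes were called higher in ascending and 1 in descending colon, HOXB6 and NXPE1 among them, and without the animal as a block 28 and 27. Leaving out 1 animal at a time gave 57 (without ZT2) to 387 (without ZT16) genes higher in ascending and 67 to 315 in descending colon, for the same animals.

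Of 32 HOX genes in the table, 13 were expressed enough to be tested, 7 were higher in ascending colon, 2 were higher in descending colon, and the list's median log2 difference was 0.59. In the 10 pairs 7 and 3 were called. Over all genes tested, 1.54% were called in each direction with 12 pairs. This list and those below were chosen with earlier results of these data known, so their counts are no independent test. HOXB13 ran from 0 through a median of 2.54 to 54.2 FPKM in ascending and from 22.9 through 54.4 to 83.6 FPKM in descending libraries. The groups overlap only through the ZT12 and ZT16 ascending libraries, and the descending library was higher in 11 of 12 pairs. Its log2 difference, ascending minus descending, was -3.71 ± 0.54 (SE, n = 12 pairs, limma adjusted p = 0.00289). The value was -4.50 in the 10 pairs, which leave out libraries singled out in part by this gene. HOXD1 followed the same direction at lower levels, with a median of 0.448 FPKM in ascending and 1.58 FPKM in descending colon.

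The ascending side held HOXA7, HOXA9, HOXA11, HOXB6, HOXB7, HOXB9 and HOXC6. HOXB9 lay between 6.08 and 14.7 FPKM in ascending colon (median 11.0) and between 2.57 and 10.2 FPKM in descending colon (median 3.81), higher in ascending in 11 of 12 pairs. The exception was ZT16, and without ZT12 and ZT16 the groups did not overlap. As these libraries were left out for carrying distal genes, that separation is no independent support. HOXB9 differed by 1.26 ± 0.18 (SE, log2) with a limma adjusted p of 0.00269. HOXB6 was higher in the ascending library of all 12 pairs, with medians of 5.04 and 1.91 FPKM, although both colons ranged widely (1.25 to 24.1 and 0.538 to 10.4 FPKM). Its difference, 1.29 ± 0.11 (SE, log2), carried the smallest adjusted p of the whole comparison, 9.13e-05 (limma). The call remained without the 4 animals of high mitochondrial share and was lost without the animal as a block. HOXA11 was also higher in all 12 pairs, at 7.29 against 2.72 FPKM in the median. HOXC6 ran from 0 to 6.18 FPKM in ascending colon, with 1 library at 0. In descending colon it was at most 0.134 FPKM, and 0 in 7 of 12 libraries. HOXC6 met the filter of a mean of 1 FPKM only through the ascending libraries, so its being tested depended on its level there. HOXA7, HOXA9 and HOXB7 differed less, by 0.73, 0.59 and 0.47 (log2). HOXA7 lost the call in 12 of 23 alternative settings and HOXA9 in 12 of 24. HOXB7 sat at the threshold, with an adjusted p of 0.0497, and lost the call in 19 of 24 alternative settings.

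**Figure D2:**
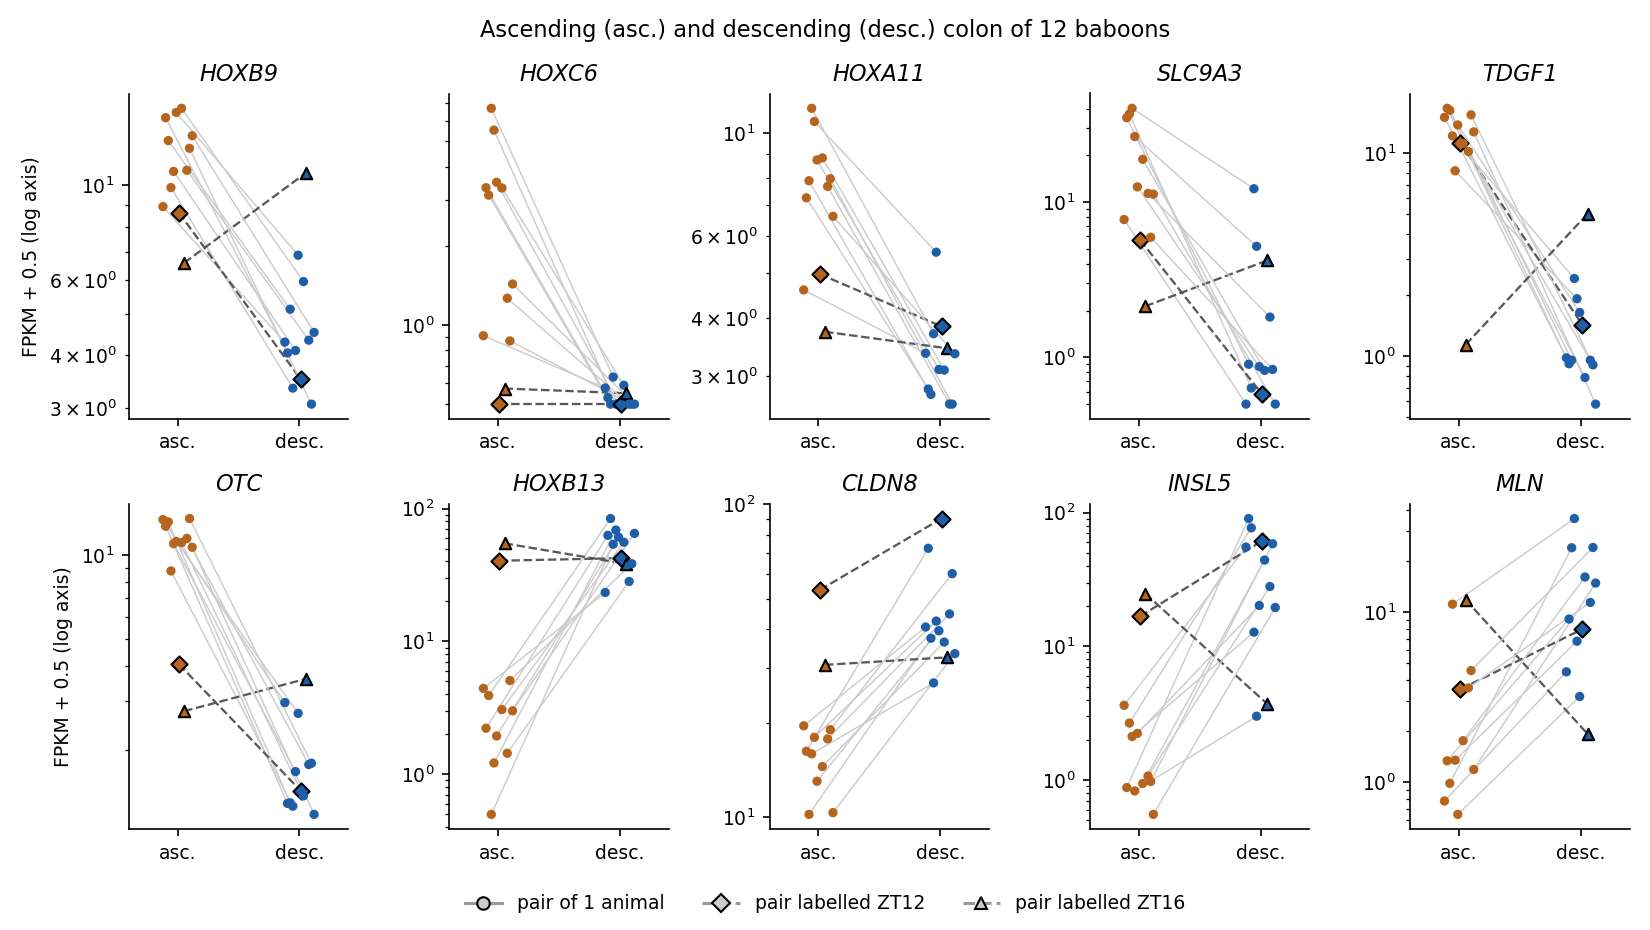
Levels (FPKM + 0.5, log axis) of 10 genes in the ascending (brown) and descending (blue) colon of 12 animals, 1 line per animal, with diamonds for ZT12 and triangles for ZT16. HOXB13, CLDN8, INSL5 and MLN rise along most lines and HOXB9, HOXC6, HOXA11, SLC9A3, TDGF1 and OTC fall, while the ZT16 line goes against the rest for HOXB9, SLC9A3, TDGF1, OTC, HOXB13, INSL5 and MLN.

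Set beside the neighbouring gut, the 2 ends were steps on a gradient for some of these genes. HOXB13 was at a median of 0.0395 FPKM in cecum and 0.0469 FPKM in ileum, so its level rose from cecum through ascending to descending colon. HOXC6 ran the other way, with medians of 6.22 FPKM in cecum, 1.78 FPKM in ascending and 0 FPKM in descending colon. HOXA11 did not form a gradient, as its median of 7.29 FPKM in ascending colon lay above both cecum (3.74 FPKM) and descending colon (2.72 FPKM). For 16 of 20 named genes higher in ascending colon, and 14 of 19 higher in descending colon, the cecum median was nearer to the ascending than to the descending median. The share over all genes was not determined, so nothing particular to the named genes is read from these counts. All gut levels here are of 12 libraries each, given without a test.

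Among 14 tested regional factors besides HOX, 2 were higher in ascending colon, ISX among them, and none was higher in descending colon (list median 0.19). ISX, an intestinal homeobox gene that represses uptake of carotenoids, differed by 0.40 ± 0.09 (SE, log2). CDX2, the master regulator of intestinal identity, had medians of 43.2 and 38.3 FPKM and an adjusted p of 0.106.

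Of 50 tested salt and water transport genes, 1 was higher in ascending and 8 in descending colon, with a list median of 0.08. The split was 3 against 9 in the 10 pairs, 8 against 12 with the library axis score as a covariate and 1 against 1 without the animal as a block, and no gene of the list was called without the 4 animals of high mitochondrial share. Over all 11716 genes tested, the fit with the axis score called 1642 higher in ascending and 995 in descending colon. The 1 gene on the ascending side with all pairs was SLC9A3, the apical sodium and proton exchanger NHE3, at 1.63 to 39.6 FPKM (median 11.4) in ascending and 0 to 11.7 FPKM (median 0.354) in descending libraries. Ascending libraries were higher in 11 of 12 pairs, and the difference was 3.32 ± 0.45 (SE, log2; limma adjusted p = 0.0022). The cecum stood higher still, at a median of 37.1 FPKM.

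On the descending side were the sodium channel subunits SCNN1B and SCNN1G. SCNN1B ran from 5.22 through 10.9 to 38.3 FPKM in ascending and from 9.35 through 26.2 to 48.4 FPKM in descending libraries, lower in ascending colon by 0.90 ± 0.17 (SE, log2). The highest ascending value was that of ZT12. SCNN1G had medians of 0.386 and 1.60 FPKM, and both subunits were higher in the descending library of 11 pairs. The third subunit, SCNN1A, had medians of 48.6 and 57.1 FPKM and an adjusted p of 0.187, so it did not pass the test. CLDN8, a tight junction claudin that limits sodium back-leak, was higher in the descending library of all 12 pairs, from 9.72 through 16.5 to 52.8 FPKM in ascending and from 26.4 through 39.5 to 89.6 FPKM in descending colon. Its 2 highest ascending values were those of ZT12 and ZT16, and without them the groups did not overlap. Those libraries were left out for carrying distal genes, so the separation of CLDN8 is no independent support.

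The other descending genes of this list handle bicarbonate, chloride and magnesium. CA1, a carbonic anhydrase, was higher in the descending library of all 12 pairs, with medians of 1615 and 3236 FPKM, a difference of -0.84 ± 0.15 (SE, log2). CA7 and BEST4, the latter a bicarbonate and chloride channel of a rare absorptive cell type, differed by -1.19 and -1.08 (log2) and were higher in the descending library of 10 pairs each. CFTR, the chloride channel, and TRPM6, the magnesium channel, differed by -0.51 and -0.58 (log2). CFTR lost the call in 11 of 24 alternative settings. TRPM6 missed the threshold in the 10 pairs, at an adjusted p of 0.0713, and in 13 of 23 alternative settings in all.

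Among 16 tested enteroendocrine genes, 5 were higher in descending and 1 in ascending colon, with a list median of -0.36, and in the 10 pairs 7 and 1. INSL5 ran from 0.0534 through 1.09 to 24.3 FPKM in ascending and from 2.50 through 35.6 to 89.9 FPKM in descending libraries, a difference of -3.63 ± 0.63 (SE, log2, limma adjusted p = 0.00714). The value was -4.44 in the 10 pairs, which leave out libraries singled out in part by this gene. GCG, the glucagon gene that gives the peptide GLP-1 in L cells, had medians of 10.1 and 27.4 FPKM and was higher in the descending library of 11 pairs. Its call was lost in 13 of 24 alternative settings, 9 of them with 1 animal left out. Ileum stood far above both colons for GCG, at a median of 258 FPKM. MLN, which codes for motilin and is a hormone of the upper gut, was also higher in descending colon, with medians of 1.06 and 9.76 FPKM, and much lower in both than in duodenum (161 FPKM).

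FFAR4, a receptor for long-chain fatty acids, and TPH1, which makes serotonin in enterochromaffin cells, were higher in the descending library of 11 and 10 pairs. The general endocrine markers CHGA and CHGB had medians of 60.3 and 23.8 FPKM in ascending and 126 and 49.8 FPKM in descending colon, and adjusted p-values of 0.0776 and 0.0604 with 12 pairs (limma). In the 10 pairs both passed, at 0.0203 and 0.0179 (limma). The ascending libraries left out there had the highest summed enteroendocrine markers of that colon, 316 FPKM (ZT12) and 583 FPKM (ZT16). The other ascending libraries lay at 20.6 to 159 FPKM. The calls of CHGA and CHGB in the 10 pairs, and the list's count of 7 there, are thus no added support. Of 6 tested markers of enteroendocrine cells, 2 were higher in descending colon, and the part of endocrine cell number in the hormone differences was not tested. The 1 gene on the ascending side, TAC1, codes for substance P and is used by enteric neurons as well. It had medians of 42.4 and 18.9 FPKM, was higher in ascending colon in 11 of 12 pairs, and lost the call in 10 of 24 alternative settings. Together with TAC3 it gave the 2 called genes of 15 tested from the enteric nervous system list (list median 0.11).

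**Figure D3:**
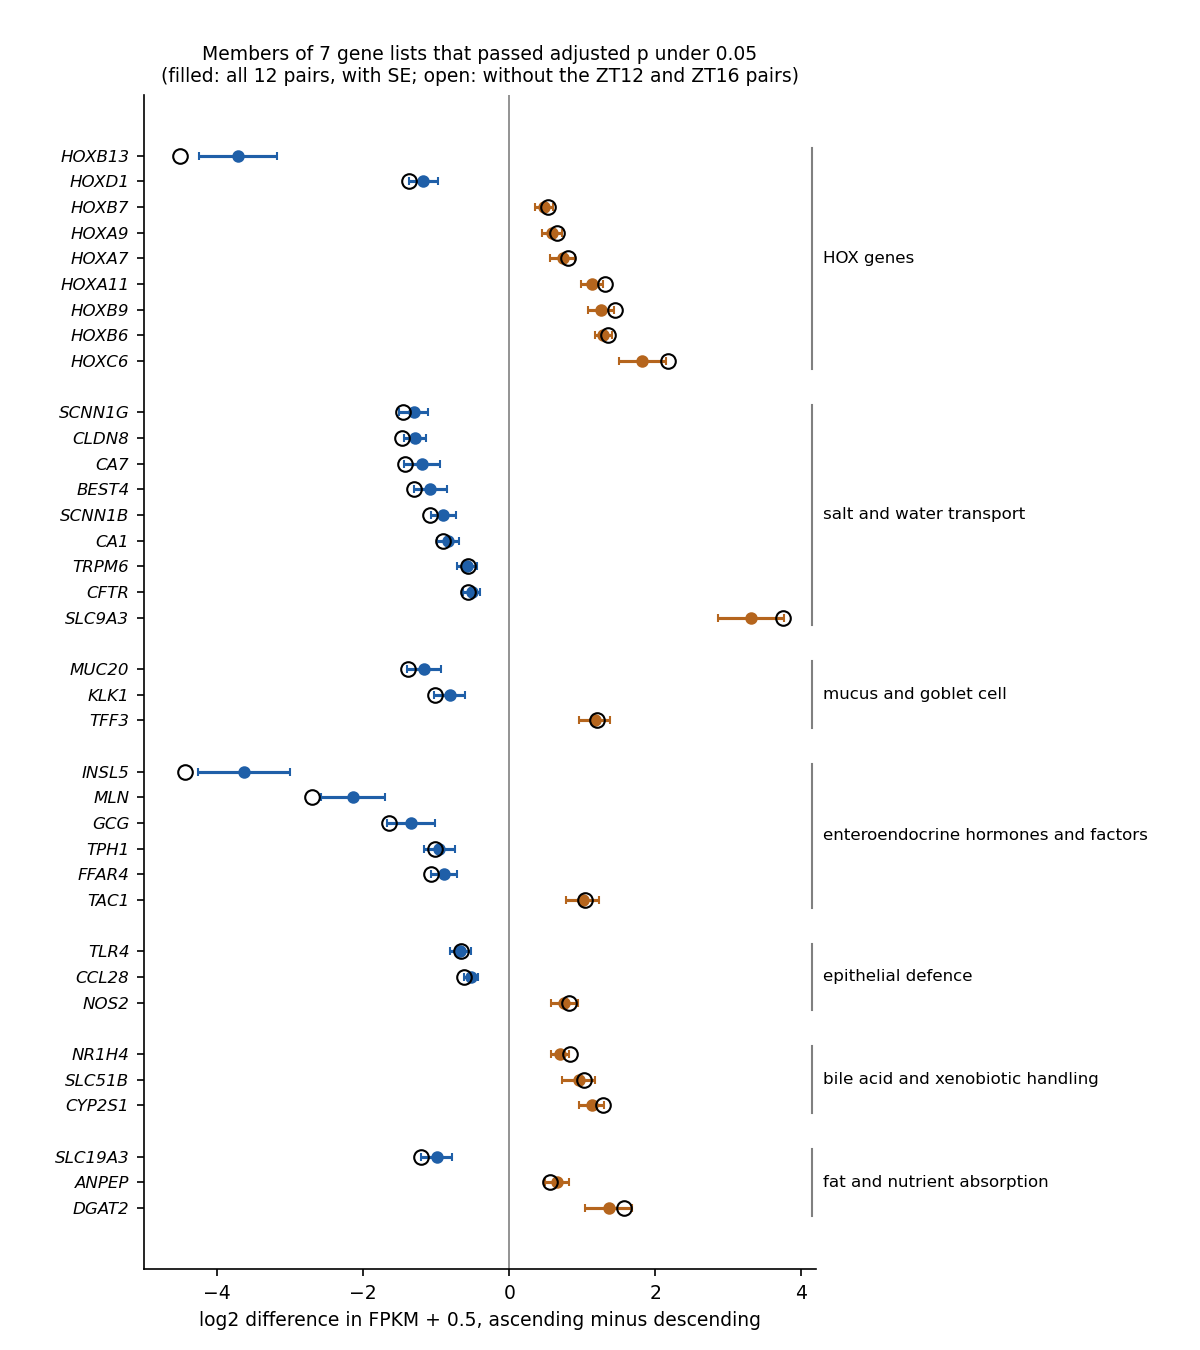
Log2 difference between ascending and descending colon (ascending minus descending, FPKM + 0.5) for the members of 7 gene lists that passed an adjusted p under 0.05, with standard errors over 12 pairs (filled) and the value without ZT12 and ZT16 (open). HOXB13 and INSL5 lie farthest to the left and SLC9A3 farthest to the right, and no open circle is on the other side of 0 from its filled point.

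OTC, ornithine transcarbamylase of the urea cycle, ran from 2.25 through 10.6 to 13 FPKM in ascending and from 0.671 through 1.05 to 3.09 FPKM in descending libraries. Its 2 lowest ascending values were those of ZT16 and ZT12, and without them the groups did not overlap. These libraries were left out with their OTC values known, so that separation is no independent support. OTC differed by 2.45 ± 0.27 (SE, log2; limma adjusted p = 0.000846), and ileum and duodenum stood above both colons with medians of 183 and 123 FPKM.

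Of 22 tested genes for bile acids and foreign compounds, 3 were higher in ascending and none in descending colon (list median 0.24). NR1H4, the bile acid receptor FXR, had medians of 9.74 and 5.82 FPKM and differed by 0.70 ± 0.12 (SE, log2). SLC51B, a subunit of the basolateral bile acid exporter, had medians of 86.3 and 46.7 FPKM and lost the call in 12 of 24 alternative settings, and CYP2S1, a cytochrome P450, was higher in the ascending library of all 12 pairs. In the 10 pairs 7 of these 22 were higher in ascending colon.

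Among the named genes higher in ascending colon were AKR1C3, which reduces steroids and prostaglandins and was higher in the ascending library of all 12 pairs (medians 89.0 and 27.8 FPKM), and ADH1B, an alcohol dehydrogenase (275 and 121 FPKM). DPEP1, a dipeptidase of the brush border, ranged from 20.4 to 545 FPKM in ascending and 2.67 to 64.5 FPKM in descending colon. Among 26 tested genes for fat and nutrient uptake, DGAT2 and ANPEP were higher in ascending and the thiamine transporter SLC19A3 in descending colon (list median 0.07), and in the 10 pairs 2 and 1. ANPEP missed the threshold in the 10 pairs, at an adjusted p of 0.0926, and in 13 of 23 alternative settings in all. DGAT2 lost the call in 11 of 24. AKR1C3, ADH1B, NXPE1 and NXPE4 belong to families of similar genes, and a share of reads counted for a relative in place of the named gene cannot be seen in these values.

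TDGF1, a co-receptor of Nodal signalling, ran from 0.641 through 11.9 to 16.1 FPKM in ascending and from 0.0812 through 0.469 to 4.53 FPKM in descending libraries, by 3.03 ± 0.45 (SE, log2; limma adjusted p = 0.00296). The lowest ascending and the highest descending value of TDGF1 were both those of ZT16. SLC14A2, a urea transporter, ran from 0.0212 through 2.60 to 77.1 FPKM in ascending colon and never passed 0.0237 FPKM in descending colon, where 10 of 12 libraries were at 0. Its ascending library was higher in all 12 pairs, the fitted size of that difference depends on the pseudocount, and cecum was higher again at a median of 46.3 FPKM. SLC14A2 met the filter of a mean of 1 FPKM only through the ascending libraries. ABO, the blood group glycosyltransferase, had medians of 24.1 and 3.55 FPKM.

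B4GALT4, ST3GAL4 and GCNT1, enzymes that build glycan chains, differed by -1.49, -1.73 and -1.12 (log2) and were higher in the descending library of 11, 11 and 10 pairs. ABO, also a glycosyltransferase, was higher in ascending colon, by 2.02 (log2). NXPE1 and NXPE4, of which NXPE1 is known for acetylating sialic acid in colonic mucus, were higher there as well, NXPE1 in all 12 pairs with medians of 12.5 and 38.5 FPKM. PARM1, a mucin-like membrane protein, ran from 2.92 through 9.28 to 68.1 FPKM in ascending and from 19.2 through 43.6 to 82.7 FPKM in descending colon. Both NXPE genes were at a median of 0 FPKM in duodenum and ileum.

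Of 21 tested mucus and goblet cell genes, TFF3 was higher in ascending colon and KLK1 and MUC20 in descending colon (list median -0.19). In the 10 pairs 1 was higher in ascending and 6 in descending colon, and KLK1 lost the call in 14 of 24 alternative settings. TFF3, the trefoil peptide secreted with mucus, had medians of 290 and 137 FPKM and differed by 1.17 ± 0.22 (SE, log2). Among 22 epithelial defence genes, CCL28, a chemokine that draws IgA plasma cells, and the bacterial sensor TLR4 were higher in descending colon, and NOS2 in ascending colon (list median -0.09). NOS2 lost the call in 14 of 23 alternative settings. In the 10 pairs 1 of these 22 was higher in ascending and 5 in descending colon, with LCN2 and PLA2G2A among them.

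Dividing and stem cell genes gave few calls. Of 37 tested, none was higher in ascending and BMP7 and BMP3, signals that hold back crypt growth, were higher in descending colon by 0.64 and 0.77 as log2 sizes (list median 0.02). BMP3 lost the call in 15 of 24 alternative settings, and in the 10 pairs 4 genes of the list were higher in descending colon. Of 28 genes for antigen presentation and interferon, HLA-DMA and IFI6 were higher in ascending colon (list median 0.40), and IFI6 missed the threshold in the 10 pairs at an adjusted p of 0.0748, which left 1 gene called. Summed levels of 6 macrophage markers ran from 26.9 through 58.3 to 151 FPKM in ascending and from 13.7 through 44.8 to 143 FPKM in descending libraries, higher in ascending in 10 of 12 pairs. None of the 6 was called (median 0.49), and their part in the result was not tested. With all 12 pairs no gene of the core clock (16 tested), clock output (23 tested) or immediate early and stress (23 tested) lists differed between the colons at an adjusted p under 0.05. Of these, 2, 6 and 6 had an unadjusted p under 0.05, against 3130 of all 11716 genes tested. In the 10 pairs CDKN1A, NAMPT and POR of the clock output list were higher in ascending colon, and no core clock or immediate early and stress gene was called. With the library axis score as a covariate, BHLHE41 and PER2 of the core clock were higher in descending colon. That fit split clock output 4 against 1 and immediate early and stress 1 against 1. Over all 11716 genes tested it called 1642 higher in ascending and 995 in descending colon. Nothing particular to these lists is read from its counts.

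The second question is how each colon changed with the time of day, taken first as ZT0 to ZT10 against ZT12 to ZT22, 6 animals each. No gene passed an adjusted p under 0.05 (limma) in the ascending colon (0% of 11735 tested, lowest adjusted p 0.346) or in the descending colon (0% of 11689, lowest adjusted p 1). At an unadjusted p under 0.05 there were 625 and 122 genes. Of 16 core clock genes tested in the ascending and 17 in the descending colon, 8 and 7 had an unadjusted p under 0.05, and their median log2 differences (early minus late) were 0.29 and 0.49 against 0.06 and -0.02 over all genes tested.

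PER2, a clock repressor, had the lowest p of all genes in the ascending colon. It lay between 1.86 and 2.81 FPKM at ZT0 to ZT10 and between 0.427 and 1.12 FPKM at ZT12 to ZT22, so the windows did not overlap. The difference was 1.23 ± 0.20 (SE, log2) with an unadjusted p of 2.95e-05 and an adjusted p of 0.346 (limma). In the descending colon PER2 lay between 1.71 and 5.54 FPKM in the early and between 0.496 and 2.68 FPKM in the late window, a difference of 1.22 ± 0.33 (SE, log2).

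DBP, a clock output factor, averaged 10.2 ± 5.1 (SD, n = 6) and 3.01 ± 1.6 FPKM in the early and late windows of the ascending colon and 5.67 ± 2.5 and 3.00 ± 1.3 FPKM in those of the descending colon, and neither difference passed the threshold. ARNTL, the clock's activator, lay the other way, at 9.08 ± 4.2 (SD, n = 6) in the early and 14.2 ± 3.3 FPKM in the late window of the ascending colon. In the descending colon ARNTL was at 8.05 ± 3.6 and 14.4 ± 4.3 FPKM (SD, n = 6). The early and late libraries of DBP and of ARNTL overlapped in both colons.

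Outside the clock, SLC14A2 in the ascending colon lay between 3.57 and 77.1 FPKM in the early and between 0.0212 and 1.63 FPKM in the late window, with an adjusted p of 0.738 (limma). Its late window holds ZT12 and ZT16, at 0.167 and 0.0212 FPKM, and without both animals the SLC14A2 difference was 2.94 on the log2 scale against 3.30. TSC22D3, which glucocorticoids induce, was at 11.6 ± 2.9 (SD, n = 6) and 5.65 ± 1.7 FPKM in the early and late ascending libraries. OAT, ornithine aminotransferase, and AGR2, which folds mucins in goblet cells, were lower in the early window. OAT lay at 4.89 to 15.0 and 15.6 to 21.9 FPKM, windows that did not overlap. OAT and PER2 are among the genes with the smallest p of 11735 tested, and neither was called. The share of all genes without overlap was not determined, so nothing is read from such a separation. In the descending colon RSRP1 lay at 35.8 to 80.9 FPKM early and 16.9 to 37.1 FPKM late, and the mucin glycosyltransferase GCNT3 averaged 272 ± 154 and 114 ± 24.1 FPKM (SD, n = 6).

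Whether the colons differed in this day and night contrast was tested within animals. No gene passed (0 of 11716 called, lowest adjusted p 0.235, limma), and 607 had an unadjusted p under 0.05. LDOC1 had the lowest p: early minus late it was 0.42 ± 0.35 (SE, log2) in the ascending and -0.95 ± 0.37 in the descending colon, a difference of 1.37 ± 0.22 with an adjusted p of 0.235. BTBD2 and PCK1, the rate-limiting enzyme of gluconeogenesis, came next among genes at 5 FPKM or more. For PER2 the difference between the colons was 0.01 ± 0.30 (SE, log2), and for ARNTL 0.19 ± 0.20.

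A cosine of 24 h fitted to the 12 libraries of each colon also gave no call: 0% of genes in the ascending colon (lowest adjusted p 0.0687) and 0% in the descending colon (0.246), with 3014 and 1624 genes at an unadjusted p under 0.05 (limma). Leaving out 1 animal gave calls in the ascending colon in 3 cases, 1004 without ZT10, 574 without ZT0 and 3 without ZT2. Of the core clock genes, 12 of 16 and 11 of 17 had an unadjusted p under 0.05, and their median amplitude was 0.68 and 0.76 on the log2 scale against 0.33 and 0.30 over all genes tested.

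In both colons NR1D1 peaked first, PER1, PER2 and DBP next, and ARNTL last. NR1D1, the repressor REV-ERB alpha, peaked at ZT0.32 in ascending and ZT22.4 in descending colon as labelled, at 22.3 and 20.4 if taken 2 h earlier. PER1 peaked at ZT4.50 and ZT3.96, PER2 at ZT4.92 and ZT3.22, and DBP at ZT4.49 and ZT3.92. ARNTL, opposite in phase, peaked at ZT14.5 and ZT14.4. In the single libraries PER1 was highest at ZT4 (5.83 FPKM) in ascending and at ZT6 (4.74 FPKM) in descending colon, and ARNTL was lowest at ZT4 in both (5.20 and 3.32 FPKM). Both colons come from the same animals, so their time courses are not independent of each other.

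**Figure D4:**
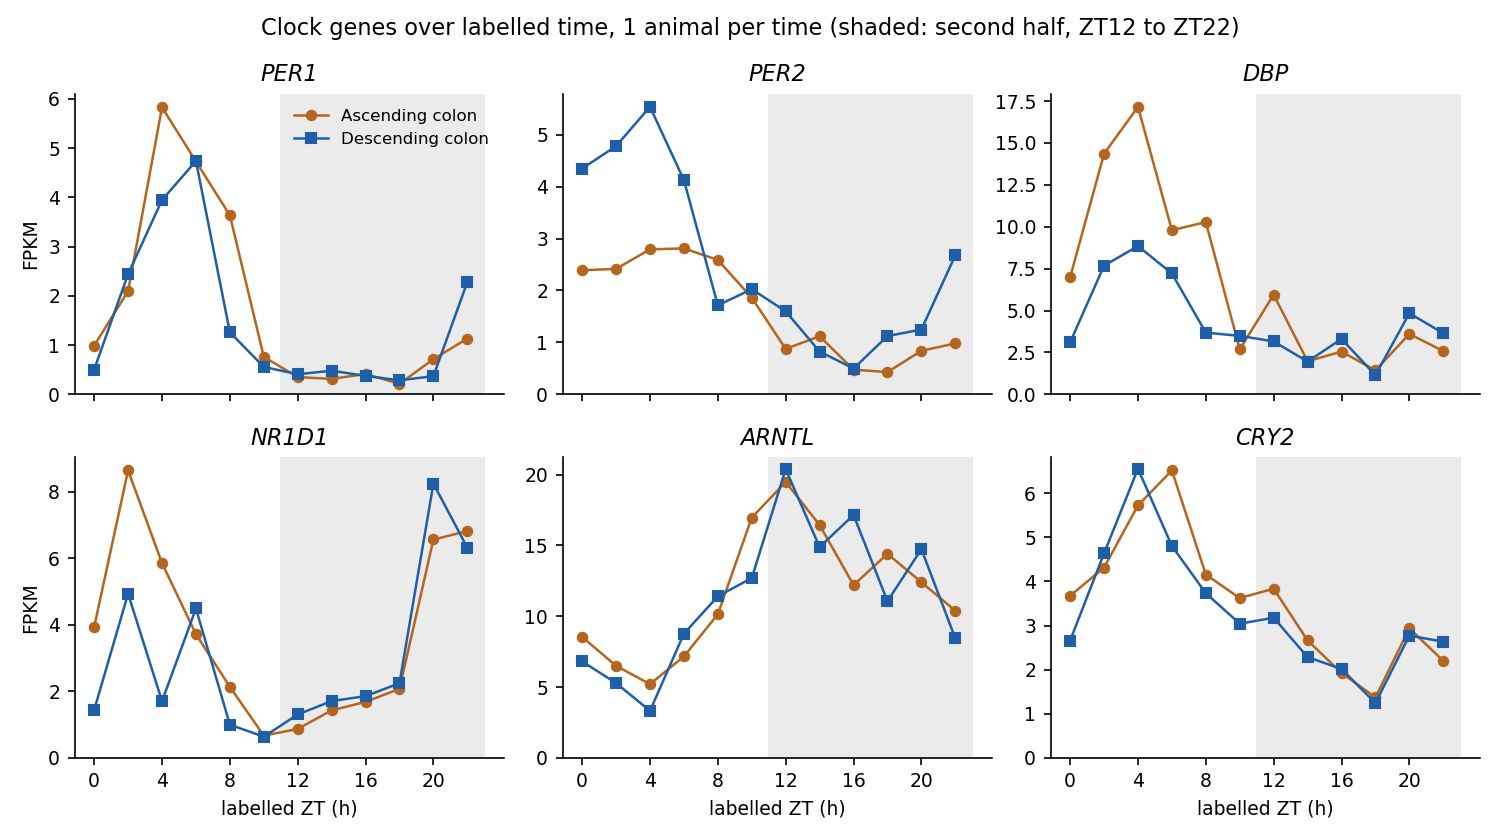
FPKM of 6 clock genes in the ascending (brown circles) and descending (blue squares) colon over labelled ZT, 1 animal per time, with ZT12 to ZT22 shaded. PER1, PER2 and DBP are highest between ZT0 and ZT8 and ARNTL is highest at ZT12 in both colons.

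Because the libraries matched the animals of the preceding ZT, the contrast was repeated with each time taken 2 h earlier, so that labelled ZT2 to ZT12 form the day window and ZT14 to ZT22 with ZT0 the night window. In the ascending colon 2396 genes were then higher by day (20.4% of those tested) and 586 by night (4.99%), 2982 in all, and 1618 (without ZT4) to 3922 (without ZT10) with 1 animal left out. In the descending colon none was called in either direction (0%), with 1752 genes at an unadjusted p under 0.05. The difference between the colons again gave 0 calls, with 460 at an unadjusted p under 0.05.

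The same windows differed on an axis that libraries of other tissues share. This axis is the first principal component of deviations between animals in 15 other tissues, where it holds 45.8% of the variance. In the ascending colon the scores ran from -0.07 to 1.16 by day and from -1.69 to -0.04 by night, overlapping only at ZT10 and ZT16, and in the descending colon from -0.21 to 1.45 and from -2.45 to 0.35. With that score as a covariate, a fit added after these values were seen, no gene was called in the ascending colon (563 at an unadjusted p under 0.05). Day and this axis overlap in these 12 animals, and their parts in the 2982 calls cannot be told apart.

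**Figure D5:**
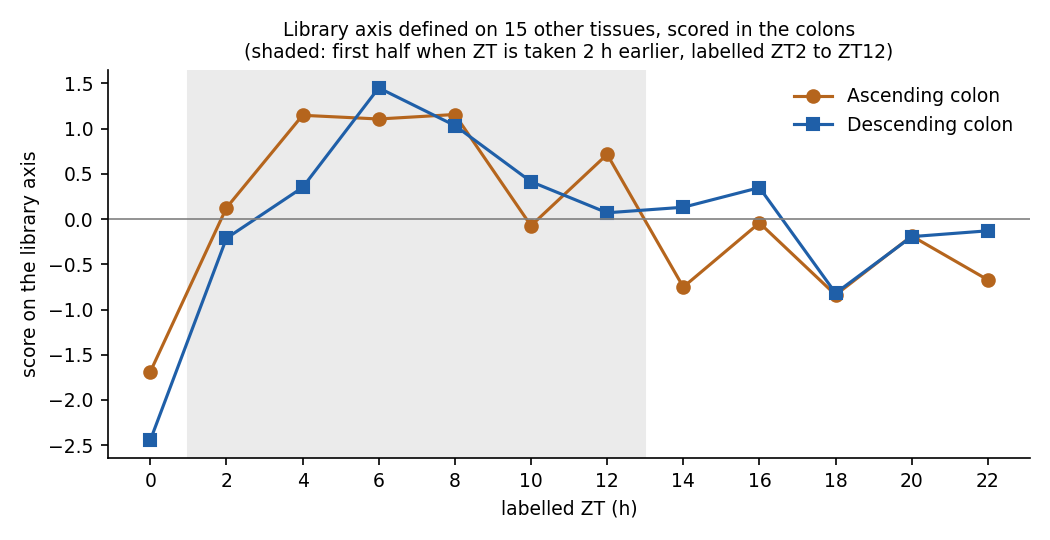
Score of each colon library on an axis defined in 15 other tissues (no unit), over labelled ZT in hours, with labelled ZT2 to ZT12 shaded. The ascending colon scores between -0.07 and 1.16 inside the shaded window and between -1.69 and -0.04 outside it.

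Among these calls, the ascending colon's clock list had 6 of 16 genes, with DBP, CRY2, PER1 and PER2 among those higher by day and ARNTL2 higher by night. CRY2, a clock repressor, lay between 3.62 and 6.52 FPKM by day and between 1.37 and 3.67 FPKM by night, a difference of 0.83 ± 0.22 (SE, log2; limma adjusted p = 0.0172). In butyrate and ketone metabolism 7 of 20 genes were higher by day and none by night, with ACADS, BDH1 and the monocarboxylate transporter SLC16A3 among them. Of 49 salt and water genes 11 were higher by day, with the guanylin genes GUCA2A and GUCA2B among them, and SLC12A2 by night. Beside these counts stand the 20.4% of all genes tested that were higher by day and the 4.99% higher by night, and nothing particular to a list is read from them. Further examples, chosen after their values were seen, were TSPO, a protein of the outer mitochondrial membrane, at 54.8 to 276 FPKM by day and 11.5 to 37.8 FPKM by night, and ETFB, an electron carrier of fat oxidation, at 87.0 to 252 and 18.7 to 64.5 FPKM. HIF1A, the oxygen-sensing factor, lay the other way, at 6.69 to 17.3 FPKM by day and 16.9 to 39.3 FPKM by night. None of these genes was called with the axis score in the fit.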

How the data were processed

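Per the labels' protocols, polyA RNA of each tissue was sequenced from stranded libraries. The authors deposited 1 table of FPKM values, 29202 genes by 767 samples, and 563 sample columns were not used. STAR, featureCounts and DESeq2 were used per the submitters' processing notes. Their versions and roles, and the genome build, were not given in the sources used here. FPKM steps gave whole reads for 100% of values (tolerance 0.01), used for depth only. Genes at a mean of at least 1 FPKM were tested on log2(FPKM + 0.5) with limma 3.58.1 (trend) in R 4.3.3, Benjamini-Hochberg adjusted, at 0.05. The code was tested on simulated data. Fold changes on this scale understate those of low genes. Colons were paired by labelled ZT as 1 animal each: deviations of same-ZT libraries correlated at 0.214 to 0.888 (median 0.383) and of other ZTs at a median of -0.03, and both colons matched the same animal in 12 of 12 pairs. Windows compare 6 animals with 6, and the difference between colons was tested within animals.

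Named genes are the 20 with the smallest p in each direction (2-fold, mean at least 5 FPKM), the 12 in each direction per window contrast, the 10 of the difference and the 5 per cosine at the same level, and members of the gene lists. Members and lists were chosen with earlier results of these data known. Other tissues served to match animals and define the axis, and cecum, ileum and duodenum also gave gut levels, with no test. Alternatives were pseudocounts, filters, scalings, covariates, no moderation, no block, times 2 h earlier and animals left out. Some results are not reported here.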

Additional observations from a re-analysis of the deposited data

Results flagged for a closer look

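In 68 groups of 6 libraries (17 genes, both colons, both windows), 1 single library lay apart from the other 5 by more than the 95% limit of Dixon's test on the log2 scale, where chance flags about 1 in 20 groups. PER1 in the descending colon at ZT22 stood at 2.28 FPKM against 0.283 to 0.479 FPKM in the rest of ZT12 to ZT22. That library matched the animal of the preceding ZT, as all colon libraries did. Mitochondrial reads took 43.2% of it, and it is 1 of the 4 libraries over 30%. A link to its PER1 value was not tested.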

How the results depend on the processing

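Against 181 genes higher in ascending and 180 in descending colon, no filter on low values gave 116 higher in ascending colon, quantile normalization 298 higher in descending colon, no moderation 75 and 103, and the axis score as a covariate 1642 and 995. Without the replicate block the counts were 28 and 27, and without the 4 animals over 30% mitochondrial reads 3 and 1. Leaving out 1 animal gave 57 to 387 and 67 to 315. The count of genes higher in ascending colon moved by over 1.5 times without ZT0 (71), ZT2 (57), ZT4 (77), ZT12 (102), ZT14 (363), ZT16 (387), ZT18 (69), ZT20 (99) or ZT22 (98), and that of genes higher in descending colon without ZT0 (90), ZT2 (67), ZT4 (89), ZT6 (271), ZT12 (108), ZT16 (315), ZT18 (78) or ZT20 (93). None of 69 named or listed genes changed direction in any setting, while 1330 of their values kept their side of the threshold and 299 lost the call. The labelled windows gave 0 calls under all settings but the times taken 2 h earlier (2982 in ascending colon, and with 1 animal left out, from ZT0 to ZT22 in turn, 1877, 3543, 1618, 1837, 1954, 3922, 2247, 1938, 3855, 1787, 2834 and 1957). Without the replicate block the difference between colons still gave 0 calls (53 at an unadjusted p under 0.05). The cosine gave 1 call (ascending) and 2 (descending) with the axis score, and 0 to 1004 in ascending colon with 1 animal left out (574 without ZT0, 3 without ZT2, 1004 without ZT10). NR1D1 in the ascending colon turned from 0.35 to -0.21 with times 2 h earlier, -0.46 with the axis score as well, and -0.049 without ZT12 and ZT16. The cause of these changes was not tested. Quantile normalization moved the median of all genes in the ascending window contrast from 0.06 to -0.05 (log2). With 1 animal per time, precision is limited by the number of animals, and the part of read depth was not tested.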
